A study of Mus musculus with 14 samples.

Results

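The mammalian circadian clock is represented here by 10 genes: Arntl (also called Bmal1), Clock, Per1, Per2, Per3, Cry1, Cry2, Nr1d1, Nr1d2 and Dbp. They were chosen by symbol, as loci of the authors' deposited tables whose gene column holds that symbol. All 10 were found among 81411 loci in those tables, and all 10 were among the 18735 genes with a value in at least 1 library. RNA from the hippocampus of C57BL6 mice, labelled 30-day old, was sequenced in 14 libraries. The mice were wild type (KMT2D+/+) or carried the gene trap allele bGeo in 1 copy of the histone H3K4 methyltransferase gene Kmt2d (KMT2D+/bGeo, called mutants below). Every mouse was dosed by gavage for 2 weeks from 2 weeks of age, either with the methylcellulose vehicle or with TAK-418 at 1 mg/kg/day in that vehicle. TAK-418 inhibits the histone demethylase LSD1, encoded by Kdm1a. By the labels, vehicle libraries are 3 wild types and 3 mutants, and drug libraries 5 wild types and 3 mutants. The series' design text gives 3 to 4 mice per group, so whether the 5 treated wild-type libraries are 5 mice cannot be told, and if some share a mouse their p-values are too small. The allele and the agent act in the whole animal, so a value in the hippocampus is not specific to a cell type. The time of day of dissection, on which clock gene levels normally depend, is not given in the sources used here.

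In the clock, the proteins of Arntl and Clock pair and bind E-boxes, short DNA elements with the letters CACGTG. They drive transcription of the Per and Cry genes, whose products form a complex that enters the nucleus and inhibits the pair. Nr1d1 and Nr1d2 encode REV-ERB alpha and beta, nuclear receptors that bind ROR elements and repress Arntl. Dbp encodes a leucine zipper activator that binds D-boxes and carries the rhythm to output genes and to Per genes. The hippocampus has a peripheral clock of its own, and in neurons Per1 and Per2 are also induced by synaptic activity and by glucocorticoids.

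The elements of this circuit were searched in RefSeq promoters of build GRCm38.p6, each running from 250 bases before a start site to 50 bases after it. Of the 10 genes, 9 had an entry, with 13 promoters in all, and 4 of those promoters held an element. The 200 bases that begin 250 bases before the start are shown for Per1, Cry1 and Per3, because these hold exact clock elements, given in capitals. For Arntl a 23-base stretch is shown, since its element lies just past a start site.
Per1: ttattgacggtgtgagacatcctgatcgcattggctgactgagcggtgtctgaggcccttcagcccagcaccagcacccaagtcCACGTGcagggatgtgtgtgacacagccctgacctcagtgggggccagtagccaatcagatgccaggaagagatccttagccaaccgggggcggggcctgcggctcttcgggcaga
Cry1: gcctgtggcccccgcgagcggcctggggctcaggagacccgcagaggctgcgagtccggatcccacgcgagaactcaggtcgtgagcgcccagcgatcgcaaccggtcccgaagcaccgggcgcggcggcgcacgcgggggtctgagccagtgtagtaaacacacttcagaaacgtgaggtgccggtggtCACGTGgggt
Per3: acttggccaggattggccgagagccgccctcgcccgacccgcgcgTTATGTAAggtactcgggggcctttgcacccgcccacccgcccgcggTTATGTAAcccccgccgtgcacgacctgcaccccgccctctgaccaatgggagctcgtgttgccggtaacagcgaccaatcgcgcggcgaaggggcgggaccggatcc
Arntl: gcagaaagTAGGTCAgggacgga
The Per1 window is chr11:69098699-69098898 on the plus strand, and its E-box CACGTG begins 166 bases before the start site. The Cry1 window is chr10:85185105-85185304 on the minus strand, with the same E-box 60 bases before the start. The Per3 window is chr4:151044716-151044915 on the minus strand and holds the D-box TTATGTAA at 205 and at 158 bases before the start. The Arntl stretch is chr7:113207533-113207555 on the plus strand, and its ROR element core TAGGTCA begins at base 31 after the start. Searched on both strands, the E-box was in 7.15% of all 32851 promoters of this length, the D-box in 0.938% and the ROR core in 2.61%. The other D-box form TTACGTAA (0.119% of promoters) and the cAMP response element TGACGTCA (1.79%) had no exact match in the members' windows. Per2 had no entry. A match describes these letters only.

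Levels are the abundance that the authors' assembler gave each transcript, summed per gene and scaled between libraries, which is a value per length. Each of 13 libraries held 33819 to 41228 assembled transcripts, and wild-type TAK-418 replicate 1 held 48428. The steps between low values put the relative depth at 35.2 to 60.2 M in those 13 libraries and at 167.1 M in that one, where M is a factor of 1000000. The labels name 2 NEBNext kits without saying which library used which, so an effect of the kit was not tested. Hippocampal neuron markers were all listed in every library (8 of 8 genes), while of 8 markers of the suprachiasmatic nucleus, the seat of the master clock, and neighbouring hypothalamus, 2 to 5 were listed, with a summed level of 11.97 to 18.1. Choroid plexus genes summed to 7259 in wild-type vehicle replicate 3 and 5864 in mutant vehicle replicate 1, to 1106 in mutant vehicle replicate 3, to 734 in mutant TAK-418 replicate 1 and to 85.9 to 148 in the other 10 libraries. Kmt2d, summed over the whole gene, was 13.99, 14.2 and 13.8 in wild-type vehicle libraries and 10.6, 10.7 and 14.4 in mutant vehicle libraries, so these groups overlapped and the level alone does not tell the genotypes apart (log2 difference -0.23 ± 0.169 SE, limma adjusted p = 0.998). Kdm1a ranged from 29.9 to 35.8 over all libraries.

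Apart from Nr1d1, whose values split by assembled form, Cry2 had the highest level of the 9 members with a value in every library. The order by mean level per length was Nr1d1 (62.8), Cry2 (41.8), Nr1d2 (26.3), Per1 (19.5), Arntl (15.1), Clock (13.9), Per2 (11.7), Per3 (11.6) and Cry1 (5.73). Neighbours in this order were not all separate. Nr1d1 exceeded Cry2 in 8 of 14 libraries, Arntl exceeded Clock in 10 of 14, and Per2 exceeded Per3 in 7 of 14. Cry2 exceeded Nr1d2, Nr1d2 exceeded Per1, Per1 exceeded Arntl and Per3 exceeded Cry1 in 14 of 14 libraries. The cryptochrome paralogs were far apart in every library, whereas the summed levels of Per2 and Per3 did not separate. The Per2 sum includes the fragments described below. Full-length Per2 models alone (7.94 to 11.4) lay below the Per3 sum (9.43 to 14.1) in most libraries, so the tie depends on which Per2 models are counted.

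**Figure D1:**
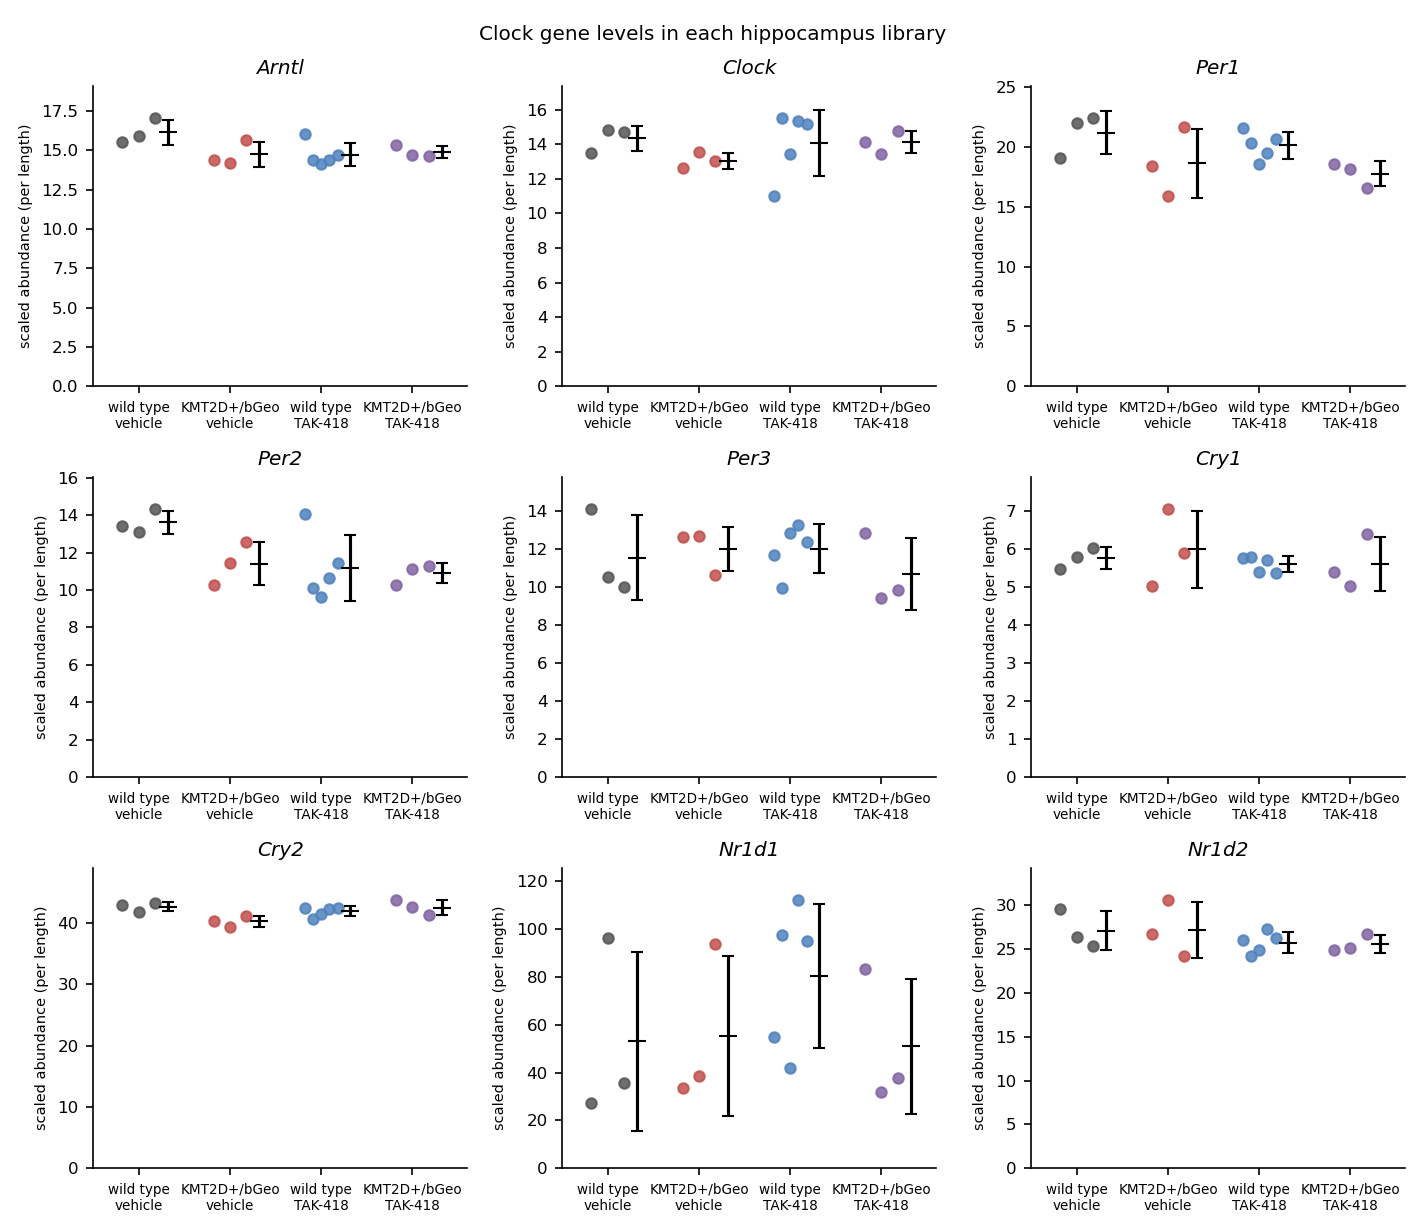
Scaled abundance per length (vertical axes, from 0) of 9 clock genes in 14 hippocampus libraries, by group (horizontal axes). Each point is a library and the black bar is the mean ± SD. Cry2 and Arntl lie in narrow bands, the Per1, Per2 and Per3 groups mostly overlap, and Nr1d1 splits into low and high libraries within every group.

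None of the 9 clock genes with a value in every library passed the threshold for genotype or drug in any of 9 comparisons. The fits used limma with Benjamini-Hochberg adjustment over all 16580 genes tested, at 0.05. A gene that was not called may still have changed within its interval. The share of all tested genes called in the same fits was 0% for genotype under vehicle, 0% for the drug in wild types, 0.00603% for the drug in mutants and 0.0121% for genotype under TAK-418. It was 0.00603% for treated mutants against vehicle wild types, 0% for vehicle mutants against treated wild types, 0.00603% for the genotype main effect, 0.0121% for the drug main effect and 0.00603% for the interaction. The count of 0 members stands beside those shares, which are close to 0 themselves. An unadjusted p under 0.05 was found for 7 of the members' differences, at most 2 in a comparison: Per2 in 3 comparisons, Per1 in 2, and Arntl and Cry2 in 1 each. Over all genes 4.40% to 9.24% had such a p, depending on the comparison, so nothing about the members is read from these 7. In bulk tissue, fewer cells of a type and less RNA per cell cannot be told apart. Dbp is left out of these counts and of what follows on the 9 other genes, because its own value exists in 6 libraries only.

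Arntl (chr7:113207465-113314126, plus strand, GRCm38) encodes BMAL1, the core activator without which the clock stops. Its level was 15.5, 15.9 and 17.0 in wild-type vehicle libraries, 14.4, 14.2 and 15.6 in mutant vehicle libraries, 16.0, 14.4, 14.1, 14.4 and 14.7 in wild-type TAK-418 libraries, and 15.3, 14.7 and 14.6 in mutant TAK-418 libraries. The wild-type vehicle group sat highest, and only the treated mutants lay wholly below it. The drug difference in wild types was -0.13 ± 0.0517 on the log2 scale (SE; 95% interval -0.24 to -0.01; limma adjusted p = 0.528). The genotype difference under vehicle had the same size, -0.13 (interval -0.25 to 0.00055; adjusted p = 0.907), while among treated libraries mutants and wild types differed by 0.02 (interval -0.10 to 0.13; adjusted p = 0.981). The interaction was 0.14 ± 0.0775 (adjusted p = 0.976). Without the 2 libraries richest in choroid plexus genes the drug difference in wild types was -0.09. The spread of Arntl among libraries of a group was small, with a residual SD of 0.0630 log2 units against a median of 0.113 for 2869 genes of like level.

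Clock (chr5:76209868-76304792, minus strand) encodes the partner of BMAL1. It was 13.5, 14.8 and 14.7 in wild-type vehicle libraries, 12.6, 13.5 and 13.01 in mutant vehicle libraries, 11.02, 15.5, 13.4, 15.3 and 15.2 in wild-type TAK-418 libraries, and 14.2, 13.5 and 14.8 in mutant TAK-418 libraries. The lowest value, 11.02, belonged to wild-type TAK-418 replicate 1, the library with the most assembled transcripts, in which Clock was split into 9 models against 3 to 6 in the others. Its group differences ran from -0.13 to 0.11 over the 6 pairwise comparisons, with no limma adjusted p under 0.740.

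Per1 (chr11:69095217-69109960, plus strand) is a period gene induced rapidly by light and neuronal activity. Its mean was lower in mutants than in wild types under both treatments, but no difference passed adjustment over all genes. It measured 19.1, 22.0 and 22.4 in wild-type vehicle libraries and 18.4, 15.9 and 21.6 in mutant vehicle libraries. Under TAK-418 it measured 21.6, 20.3, 18.6, 19.5 and 20.7 in wild types and 18.6, 18.2 and 16.6 in mutants. The treated mutants lay below every wild-type library of either treatment, although the highest of them (18.5794) all but equalled wild-type TAK-418 replicate 3 (18.5798), and mutant vehicle replicate 3 sat among the wild types. The genotype main effect was -0.18 ± 0.0666 log2 units (interval -0.32 to -0.03; limma adjusted p = 0.820). Treated mutants against vehicle wild types gave -0.24 ± 0.0993 (adjusted p = 0.898). Neither passed adjustment, and the interaction was 0.01 with an interval of -0.28 to 0.30. In the authors' deposited table, the Per1 FPKM under vehicle was 17.2 for wild types and 14.8 for mutants (log2 -0.21, p = 0.0851, q = 0.9998). The authors' deposited table for the treated groups gave 16.2 in wild types and 14.4 in mutants (log2 -0.17, p = 0.03995, q = 0.808).

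Most Per1 RNA was assembled from the start site of the promoter shown above. Its transcripts began at 69098908 to 69098940 on chromosome 11, which is 9 to 41 bases before the RefSeq start at 69098949, and carried all 22 matched introns. In 4 libraries an additional transcript began farther upstream, at 69095238 to 69095244, with an alternative first exon. It made up 29.1% of Per1 abundance in wild-type TAK-418 replicate 5, 8.08% and 6.10% in wild-type vehicle replicates 1 and 2, and 5.44% in mutant vehicle replicate 3. The other 10 libraries hold no such model, and a missing model is no proof of absence.

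Per2 (chr1:91415982-91459324, minus strand) encodes a period protein that joins CRY in the repressor complex. Its summed level was 13.4, 13.1 and 14.3 in wild-type vehicle libraries, 10.3, 11.4 and 12.5 in mutant vehicle libraries, 14.1, 10.1, 9.65, 10.6 and 11.4 in wild-type TAK-418 libraries, and 10.3, 11.1 and 11.3 in mutant TAK-418 libraries. Both mutant groups lay wholly below the wild-type vehicle group, and 4 of 5 wild-type TAK-418 libraries did too. The differences were -0.28 ± 0.102 for the drug in wild types (limma adjusted p = 0.478), -0.30 ± 0.115 for treated mutants against vehicle wild types (adjusted p = 0.845) and -0.17 ± 0.0768 for the drug main effect (adjusted p = 0.602). None passed adjustment.

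The Per2 sum depended on how the gene had been assembled. Full-length models with most or all of the 22 matched introns were present in every library, and 9 libraries also held a short 3′ fragment of 1 to 4 matched introns. The fragment supplied 40.4%, 23.6% and 26.1% of the sum in the 3 wild-type vehicle libraries and 29.3% in wild-type TAK-418 replicate 1, but 0% in the other 4 wild-type TAK-418 libraries. Full-length models alone gave 8.01, 10.02 and 10.6 in wild-type vehicle libraries and 9.93, 10.1, 9.65, 10.6 and 11.4 in wild-type TAK-418 libraries, so these groups then overlapped. In mutants they gave 10.3, 7.94 and 10.4 under vehicle and 9.69, 8.73 and 7.94 under TAK-418, so both mutant groups then overlapped the wild-type vehicle group too. With each transcript weighted by its length, which follows the reads on the whole gene, the drug difference in wild types was -0.09 (adjusted p = 0.740). With only the highest transcript of each gene it was 0.29, with the opposite sign (adjusted p = 0.712). On the length-weighted scale mutant vehicle libraries (52.6 to 68.1) overlapped wild-type vehicle ones (58.1 to 69.6), while mutant TAK-418 libraries (52.7 to 56.5) stayed below them.

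**Figure D2:**
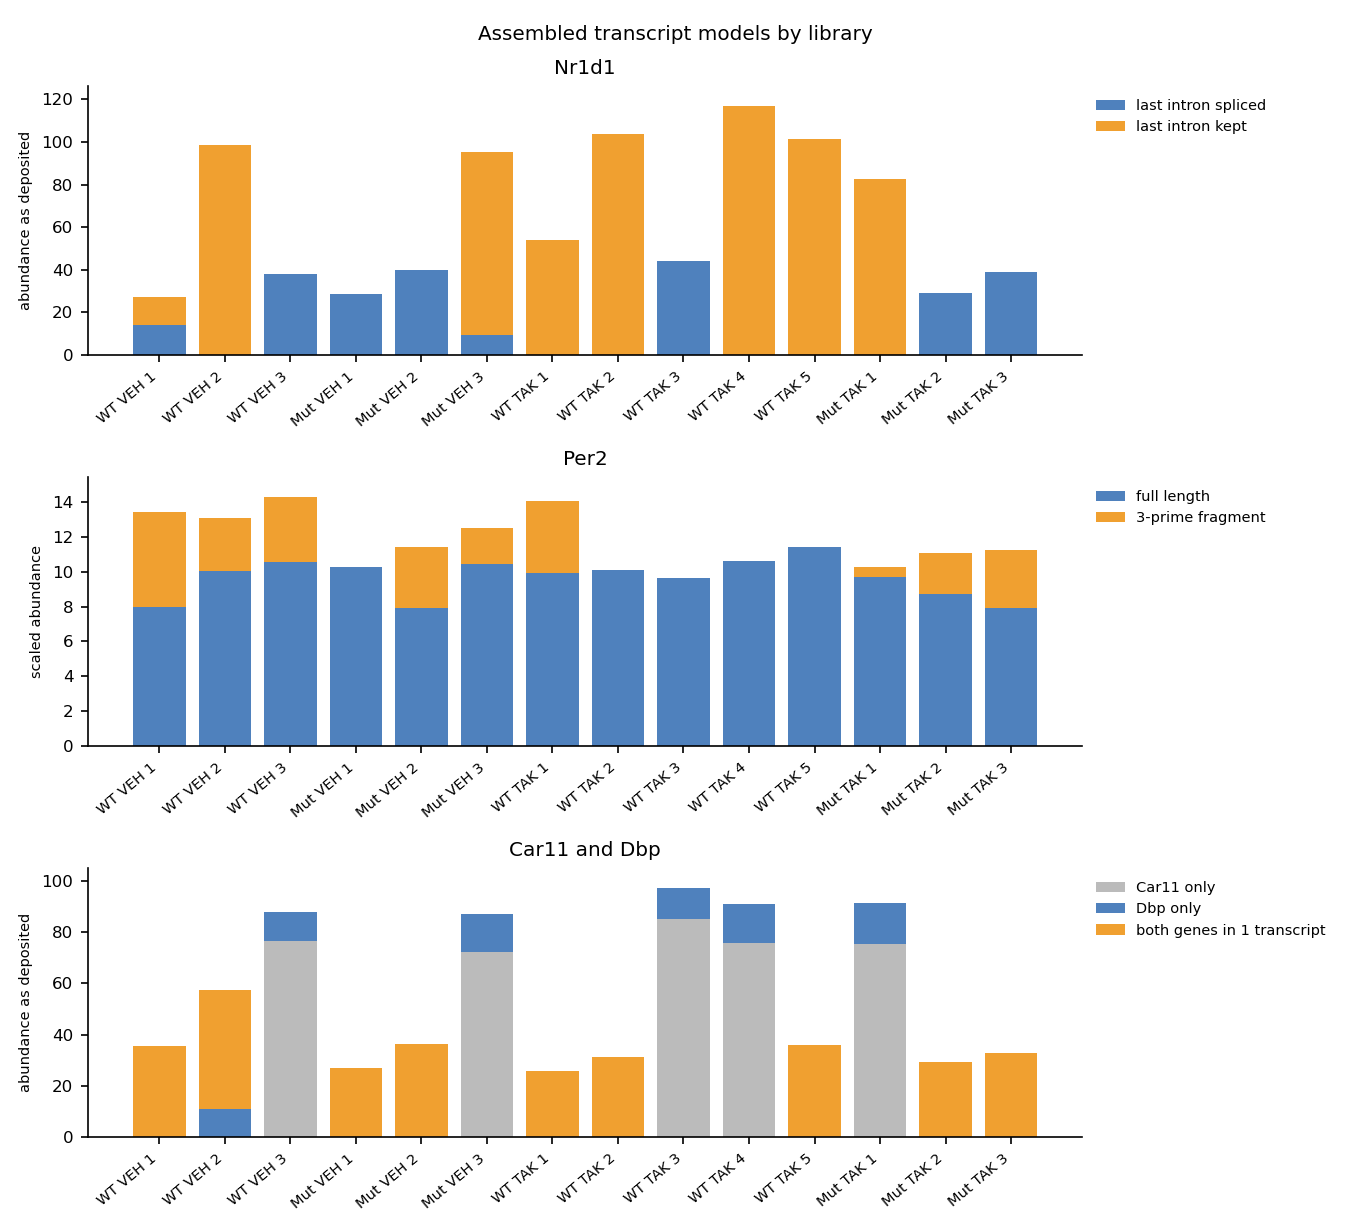
Abundance of assembled transcript models in each library (stacked bars from 0, 14 libraries on the horizontal axes; Nr1d1 and Car11 with Dbp as deposited, Per2 scaled). WT and Mut are wild-type and mutant mice, VEH and TAK are vehicle and TAK-418. High Nr1d1 bars are models that keep the last intron, Per2 fragments occur in 9 libraries, and Dbp has a model of its own in 6.

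Per3 (chr4:151003652-151044665, minus strand), the period gene least needed for rhythm, ranged from 9.43 to 14.1 and every pair of groups overlapped. It was 14.1, 10.6 and 10.02 in wild-type vehicle libraries and 12.7, 12.7 and 10.7 in mutant vehicle libraries. Its residual SD of 0.188 log2 units was the widest of the Per genes. Between 2 and 5 models per library were assembled, and the top one carried 40.8% to 88.0% of the sum. The pairwise differences ran from -0.16 to 0.06, with no adjusted p under 0.906 by limma.

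Cry2 (chr2:92403646-92434043, minus strand), a core repressor, was held within a very narrow range. It was 42.9, 41.8 and 43.2 in wild-type vehicle libraries, 40.4, 39.3 and 41.1 in mutant vehicle libraries, 42.5, 40.6, 41.5, 42.3 and 42.4 in wild-type TAK-418 libraries, and 43.7, 42.6 and 41.2 in mutant TAK-418 libraries. Its residual SD was 0.0314 log2 units, and 1.01% of 1883 genes of like level had a smaller one. Mutant vehicle libraries lay below both wild-type vehicle and mutant TAK-418 libraries without overlap. The genotype difference under vehicle was -0.08 ± 0.0351 (limma adjusted p = 0.871), and the drug difference in mutants was 0.08 ± 0.0351 (adjusted p = 1). Its interaction was 0.10 (interval -0.00055 to 0.21; adjusted p = 0.976).

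Cry1 (chr10:85131700-85185064, minus strand), its paralog, was the least abundant member. It measured 5.47, 5.80 and 6.03 in wild-type vehicle libraries, 5.03, 7.05 and 5.91 in mutant vehicle libraries, 5.77, 5.78, 5.40, 5.70 and 5.38 in wild-type TAK-418 libraries, and 5.40, 5.04 and 6.40 in mutant TAK-418 libraries. All groups overlapped, and the pairwise differences lay between -0.08 and 0.07 on the log2 scale. Their 95% intervals ran from -0.31 to 0.28.

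Nr1d2 (chr14:18204054-18239127, minus strand), which encodes REV-ERB beta, ranged from 24.2 to 30.5 with overlap between all groups. It was 29.6, 26.3 and 25.3 in wild-type vehicle libraries and 26.7, 30.5 and 24.2 in mutant vehicle libraries. The drug main effect was -0.07 ± 0.0541 (limma adjusted p = 0.734), and the pairwise intervals ran from -0.26 to 0.23.

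Nr1d1 (chr11:98767932-98775333, minus strand), which encodes REV-ERB alpha, had the widest spread of all members, and the split followed the form of the assembled transcript. Its scaled level was 27.4, 96.2 and 35.5 in wild-type vehicle libraries and 33.6, 38.5 and 93.7 in mutant vehicle libraries. Under TAK-418 it was 55.0, 97.7, 41.9, 112.1 and 95.2 in wild types and 83.3, 32.01 and 37.7 in mutants. Each group held both low and high libraries. The last intron of Nr1d1 (chr11:98768420-98769048 on GRCm38, 629 bases) lies mostly opposite an exon of Thra, the thyroid hormone receptor alpha gene on the other strand, which spans 98768157 to 98769006. In the 6 libraries where the model kept this intron the deposited abundance was 53.7 to 117. In the 6 where it was spliced, the abundance was 28.5 to 44.1. The remaining 2 libraries held both forms. Thra itself was at 279 to 544, far above Nr1d1. The labels name NEBNext library kits and no strand setting, so reads of the overlapping bases cannot be assigned to either gene here.

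The residual SD of Nr1d1 was 0.744 log2 units, above that of 97.9% of 1409 genes of like level. Its drug difference in wild types was 0.71 with an interval of -0.38 to 1.81 (limma adjusted p = 0.725), which spans 0 widely. In the authors' deposited table for the vehicle groups, the locus named Nr1d1, whose interval (98740587 to 98775333) also spans Thra, had FPKM 37.2 in wild types and 38.5 in mutants (q = 0.9998). In the authors' deposited table for the treated groups it had 38.8 and 38.0 (q = 0.999).

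Dbp (chr7:45705088-45710203, plus strand), the output activator, had a transcript of its own, apart from its neighbour Car11, a carbonic anhydrase relative, in only 6 libraries. There its own scaled level was 10.7 and 10.8 in wild-type vehicle replicates 2 and 3, 14.6 in mutant vehicle replicate 3, 11.5 and 14.9 in wild-type TAK-418 replicates 3 and 4, and 15.9 in mutant TAK-418 replicate 1. In wild-type vehicle replicate 2 transcripts joining both genes were assembled as well. The 10.7 there leaves out any Dbp RNA in those and is not comparable with the other values. In 9 libraries transcripts shared introns with both genes, 1 in each of 8 libraries and 2 in wild-type vehicle replicate 2, and their summed abundance of 25.6 to 46.3 was counted to Car11. The other 8 libraries therefore list Dbp at 0, and no difference between groups is read from it. The authors' deposited tables also hold Car11 and Dbp as 1 locus, and under vehicle its FPKM was 93.9 for wild types and 89.6 for mutants (log2 -0.07, q = 0.9998).

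Taken as 1 locus weighted by length, an alternative added after seeing the data, Car11 and Dbp gave 144, 154 and 131 in wild-type vehicle libraries and 138, 140 and 127 in mutant vehicle libraries. They gave 131, 140, 146, 120 and 141 in wild-type TAK-418 libraries and 129, 134 and 134 in mutant TAK-418 libraries. All groups overlapped. The largest pairwise difference was -0.11 for treated mutants against vehicle wild types (interval -0.27 to 0.06; limma adjusted p = 0.974). Most of this sum is Car11 where the genes were separate, so a change of Dbp alone could be hidden in it.

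**Figure D3:**
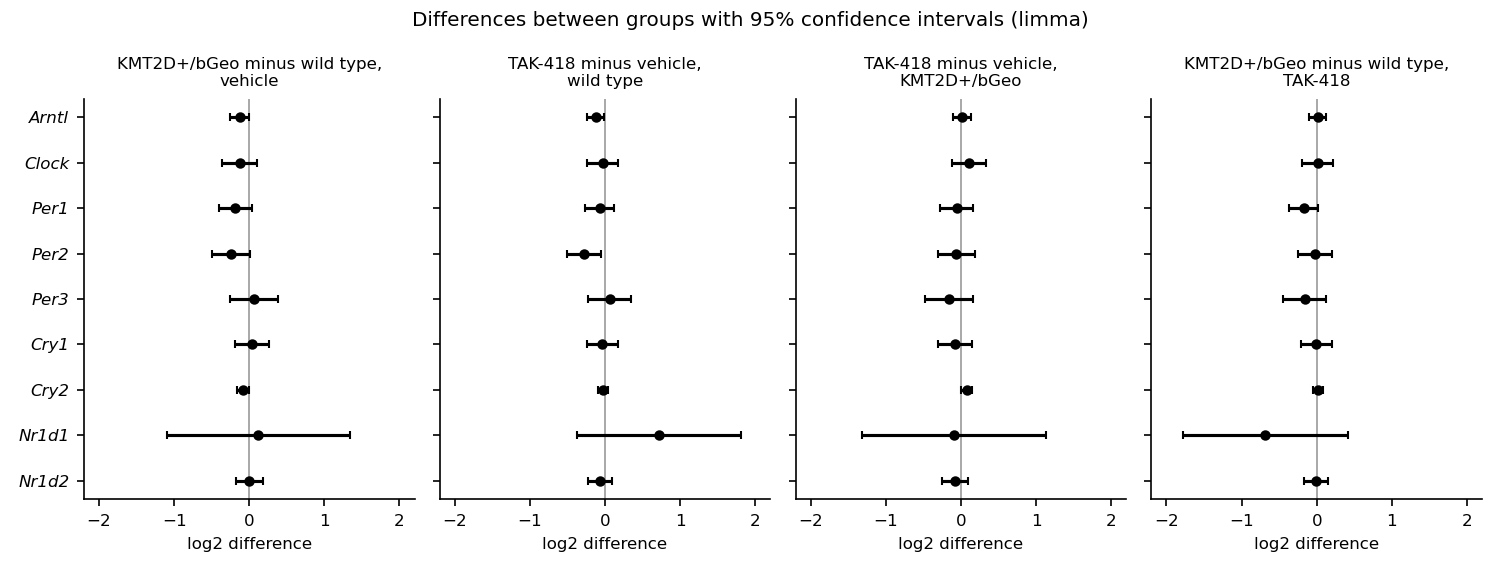
Log2 differences between groups (horizontal axes) for 9 clock genes, with 95% confidence intervals from limma, in 4 comparisons. Intervals for Cry2 and Arntl are the narrowest and those of Nr1d1 the widest, and the interval of Per2 for the drug in wild types lies below 0 without passing adjustment over all genes.

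The direction of the 9 measured genes was mixed. Under vehicle, 4 were higher and 5 lower in mutants, with a median of -0.08, beside a median of 0 and 49.95% higher over all genes. With no scaling between libraries this became 1 higher and 8 lower, when the median of all genes was -0.08. Under TAK-418, 3 were higher and 6 lower in mutants, or 0 higher with no scaling. The drug in wild types gave 2 higher and 7 lower, with a median of -0.03. The drug in mutants gave 3 higher and 6 lower, with a median of -0.06. Treated mutants against vehicle wild types gave 1 higher and 8 lower, with a median of -0.08, the most one-sided pairwise count, and here all 9 were lower with no scaling between libraries, when the median of all genes was itself -0.06. Groups did not overlap for 2 of 9 genes under vehicle (Per2 and Cry2 lower), where 8.9% of all genes had such groups, and the separation of Per2 was lost with full-length models or weighting by length. The count was 1 of 9 for the drug in mutants (Cry2, background 8.18%), 0 of 9 for the drug in wild types (6.33%) and 1 of 9 for genotype under TAK-418 (Per1, 4.6%). It was 3 of 9 for treated mutants against vehicle wild types (Per1, Per2 and Arntl, 9.53%) and 0 of 9 for vehicle mutants against treated wild types (6.24%). These comparisons share groups, so the counts are not independent of each other.

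In the authors' deposited tables, none of the 10 loci had a q-value under 0.05. Not every locus is 1 gene alone, as given above for Nr1d1 and Dbp. The locus named Per3 (chr4:150914562-151861876) is far wider than the gene (151003652 to 151044665), so its values cannot be read as those of Per3 alone. The share of tested loci with such a q-value was 0.224% under vehicle, 0.218% under TAK-418, 0.324% for treated mutants against vehicle wild types and 0.611% for vehicle mutants against treated wild types. Per1 was the only clock gene in the authors' deposited tables with a p-value under 0.05, in 2 of the 4 tables. These were genotype under TAK-418, where 4.10% of tested loci had such a p-value, and treated mutants against vehicle wild types, where 4.49% did. The FPKM of Per1 was lower in mutants in all 4 tables, but these reuse the same 4 pooled groups and are not independent. For Per2 the authors' deposited table gave FPKM 7.57 and 7.06 in vehicle wild types and mutants (log2 -0.10, p = 0.496), a smaller difference than the -0.24 from the summed models.

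Per1 and Per2 went up and down together from library to library when the reads on the whole gene were used. With abundance times length, both Pearson's r (0.91) and Spearman's rho (0.91) were high over 14 libraries (permutation p = 2e-05, adjusted p = 0.00072 over 36 pairs of 9 genes for both). The value was 0.91 for deviations from the group means, 0.90 without the libraries richest in choroid plexus genes, 0.86 without the 2 libraries farthest from the median of Per1, and 0.88 to 0.95 when each library was left out in turn. Among 13273 genes with a value in every library, Per2 ranked 2 in likeness to Per1 on this scale, and Arntl ranked 218. On the scale per length, r was 0.54 (permutation p = 0.0460, adjusted p = 0.354). With full-length Per2 models alone it was 0.74, a value that was not tested, and with the highest transcript alone it was -0.07. The weighting by length was chosen after seeing the data, because of the Per2 fragments.

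Arntl followed Per2 on the scale per length, with r = 0.86 and rho = 0.82 (permutation p = 1e-04 for r, adjusted p = 0.0036 over 36 pairs, and adjusted p = 0.0209 for rho). It was the only 1 of 36 pairs to pass adjustment there. The value was 0.77 within groups, 0.76 without wild-type vehicle replicate 3 and wild-type TAK-418 replicate 1, which are the libraries farthest from the Per2 median, and 0.81 without the libraries richest in choroid plexus genes. Weighted by length it was 0.68 (permutation p = 0.00501, adjusted p = 0.0868), and with full-length Per2 models alone it was 0.22. The value thus depended on which Per2 models were counted. Of 13273 genes, the 5 whose values per length were most like those of Arntl were Per2 (r = 0.86), Arid5b (0.82), Mlip (0.81), Ifnar2 (0.80) and Zdhhc20 (0.80).

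Per1 and Arntl had r = 0.71 and rho = 0.65 per length (permutation p = 0.00513 for r, adjusted p = 0.0923), 0.71 without the 2 libraries farthest from the Per1 median, and 0.66 weighted by length, which fell to 0.42 without the 2 farthest libraries on that scale. Cry1 and Cry2 had r = -0.46 and rho = -0.26 per length (permutation adjusted p = 0.446 for r and 0.792 for rho). Weighted by length they had r = -0.68 and rho = -0.73 (permutation p = 0.00767 for r, adjusted p = 0.0868), which missed the threshold, and r = -0.52 without the 2 libraries farthest from the Cry1 median. Without the libraries richest in choroid plexus genes r was -0.86 weighted by length and -0.79 per length. Within groups it was -0.61 and -0.48. These values were not tested. In the textbook rhythm of a peripheral tissue, Arntl peaks opposite to the Per genes. Here r of Arntl was positive with both Per1 and Per2 on both scales, but with the highest transcript alone it was -0.16 for Per2.

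**Figure D4:**
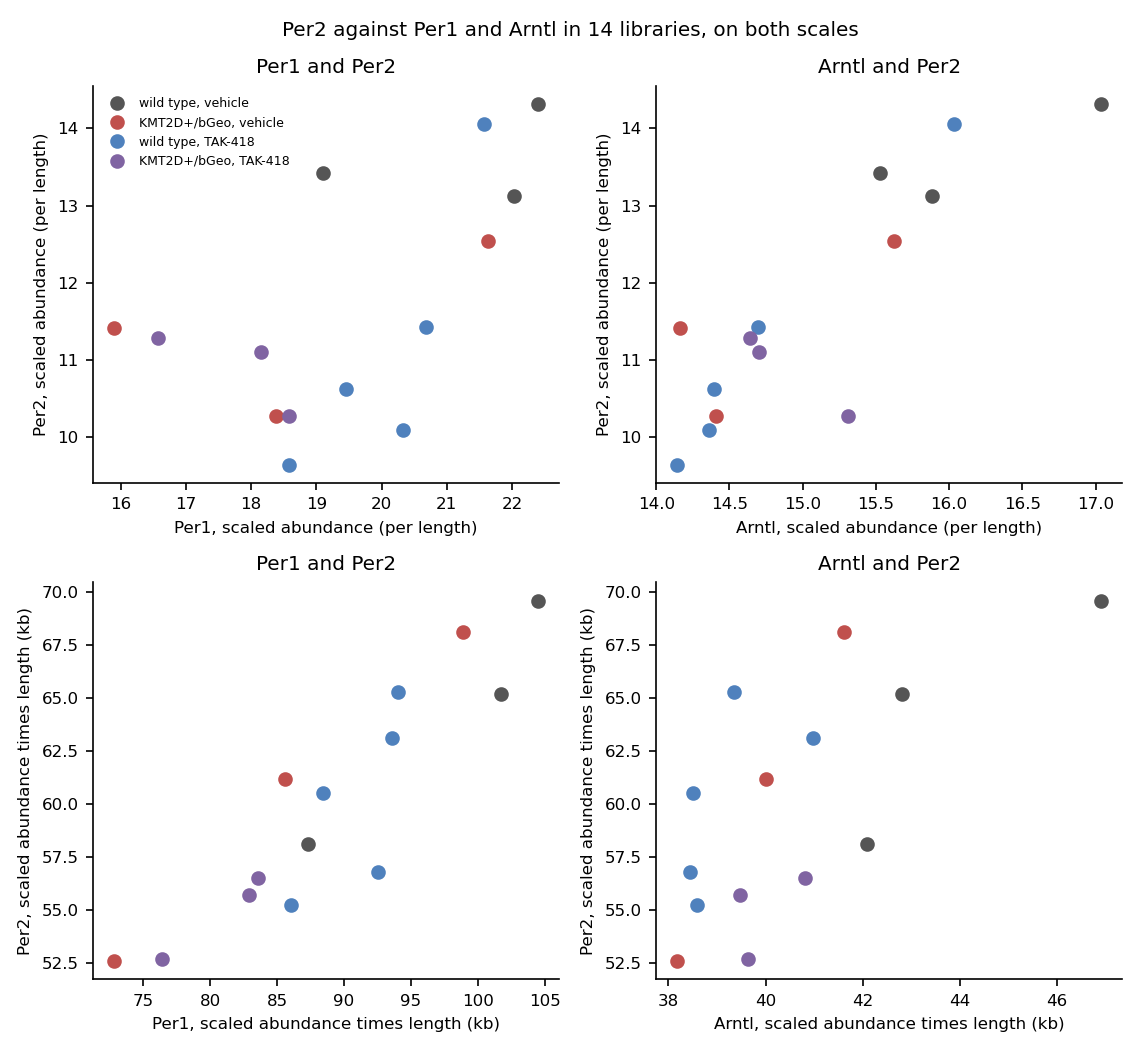
Per2 (vertical axes) against Per1 and Arntl (horizontal axes) in 14 libraries coloured by group, as scaled abundance per length (top) and multiplied by length in kb (bottom). Weighted by length, Per2 follows Per1 closely (r = 0.91), and the link to Arntl is looser than on the scale per length (0.68 against 0.86).

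Activity genes moved with part of this variation. Immediate early genes such as Fos, Egr1 and Arc are switched on within minutes of neuronal firing. The mean log2 level of 13 such genes was related to Arntl (r = 0.72, rho = 0.68, permutation p = 0.00385, adjusted p = 0.0231 over 6 relations) and to Per1 (r = 0.64, rho = 0.69, permutation p = 0.0142, adjusted p = 0.0426) per length. For Per2 it was 0.49 (rho = 0.48, permutation p = 0.0773, adjusted p = 0.155). Without the 2 farthest libraries the values for Arntl and Per1 were 0.63 and 0.61, and without the choroid plexus libraries 0.54 and 0.56. Junb is listed at 0 in 7 libraries, while Egr2 has a value in 9 libraries and Jun in 13. With the 10 immediate early genes that have a value in every library, r was 0.69 for Arntl and 0.66 for Per1. By rank the values were weaker, with rho of 0.49 for Arntl (unadjusted permutation p = 0.0790) and 0.58 for Per1 (unadjusted permutation p = 0.0314). Weighted by length, those 10 genes gave 0.66 for Arntl (permutation adjusted p = 0.0315 over 3 relations) and 0.56 for Per1 (adjusted p = 0.0530), so the relation to Per1 no longer passed. Without the 2 farthest libraries these weighted values fell to 0.35 for Arntl and 0.27 for Per1, so on that scale the relations rest on those libraries. Per length, the glucocorticoid response list, which includes Fkbp5 and Sgk1, gave r of 0.18 to 0.22 and rho of 0.12 to 0.36 with Per1, Per2 and Arntl (smallest permutation adjusted p = 0.537 for r and 0.305 for rho). Without the 2 libraries richest in choroid plexus genes these r became 0.48 for Per1, 0.61 for Per2 and 0.64 for Arntl, values that were not tested. Weighted by length, r with this list was 0.11 for Per1, 0.07 for Per2 and -0.09 for Arntl. Without those 2 libraries it was 0.34, 0.27 and 0.29 on that scale, also not tested. Under vehicle, 12 of 13 immediate early genes were lower in mutants with a median of -0.35, and none passed the test. Over all genes 49.95% were higher. The mean log2 level of the list was 3.04, 3.63 and 3.91 in wild-type vehicle libraries and 2.80, 2.75 and 3.51 in mutant vehicle libraries, so these groups overlapped. The part of the immediate early genes in the Per1 and Per2 values was not tested.

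A list of 20 further clock genes showed the same absence of calls. It holds the ROR activators of Arntl, the D-box factors Tef, Hlf and Nfil3, the E-box repressors Bhlhe40 and Bhlhe41, and the kinases and ubiquitin ligase subunits that time PER and CRY turnover. All 20 were tested and 0 were called in each of the 9 comparisons by limma. Under vehicle 6 were higher and 14 lower in mutants, with a median of -0.08, a highest value of 0.43 for Timeless and a lowest of -0.47 for Rora. The drug in wild types gave 7 higher and 13 lower, with a median of -0.03. The drug in mutants gave 10 higher and 10 lower, with a median of 0.0038, from -0.55 for Timeless to 0.44 for Btrc. Rora, an activator at ROR elements, was 4.49, 4.56 and 4.27 in wild-type vehicle libraries and 2.78, 2.34 and 3.93 in mutant vehicle libraries. Those groups did not overlap for Rora, nor for Npas2, Bhlhe40 and Bhlhe41, also lower in mutants, nor for Cipc, which was higher in mutants. Over all genes 8.9% had such groups under vehicle. In wild-type TAK-418 libraries Rora ran from 0.729 to 4.47, the lowest again in replicate 1. Its difference under vehicle had a limma adjusted p of 0.998.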

How the data were processed

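RNA of mouse hippocampus was analysed in 14 libraries and 4 groups taken from the labels. The labels give no pairing and do not state outright that each library is a separate mouse, so p-values measure the spread between these libraries, which may be technical. Per the submitters' processing notes the build was mm10 and FastQC and TopHat2 2.1.0 were used. The authors assembled transcripts per library with CLASS 2.1.7, per the file headers, and the deposited value is an abundance score per transcript. Abundance times length fell on whole multiples (within 0.1) of a step per library for 94.3% to 98.6% of single-exon transcripts of up to 30 steps, which gave the relative depth. The authors' deposited tables, in the column layout of Cuffdiff, hold pooled FPKM per group, a log2 fold change, a p-value and a q-value per locus, and give no spread between libraries. Each group's FPKM was closest to that of the same group in another of these tables. Over the 500 loci that varied most between libraries, their fold changes followed the libraries only loosely (best Pearson r 0.20 to 0.35). For genotype under TAK-418 a pair of groups other than the named one fitted best (r = 0.28).

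Each transcript was given to a gene of GENCODE M21 (GRCm38, 55450 genes) by shared introns, or with 1 exon by at least 50% overlap on either strand, and summed per gene. A gene listed at 0 had no assembled transcript. Scaling used the median of ratios across 13274 genes. Genes listed above 0 in 3 or more libraries (16580) were fitted as log2(value + 0.883), the 10th percentile of values above 0, in limma 3.58.1 (R 4.3.3) with 4 group means and trended variance, and adjusted by Benjamini-Hochberg at 0.05. Fold changes on this scale understate the change of low genes. Correlations had 100000 permutations, two-sided. The fit was tested on simulated data. Python 3.11.15 with pandas 2.3.3 and matplotlib 3.10.9 was used elsewhere.

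The members and gene lists were chosen with earlier results of these data known. Named genes are the 10 members, listed genes at the ends of a range, and the 5 genes most like Arntl. Those most like Dbp were not sought, since Dbp had a value of its own in 6 libraries. Alternatives changed the pseudocount, filter, scaling, way of summing, variance model and libraries, and some, named as such, were added after seeing the data.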

Additional observations from a re-analysis of the deposited data

How the results depend on the processing

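The count of 0 clock genes called was the same in each of the 9 comparisons under its 25 or 26 alternatives (231 values in all: other pseudocounts, filters, scalings and ways of summing, 2 groups alone, no variance trend, each library left out, and no choroid plexus libraries); the range with each library left out was 0 to 0. Over all genes the number called stayed between 0 and 18. The 7 differences with an unadjusted p under 0.05 kept their direction in 184 of 187 alternative values and passed adjustment in 0 of them. The 3 exceptions were all Per2 with the highest transcript only. They were 0.29 for the drug in wild types, 0.0601 for treated mutants against vehicle wild types and 0.12 for the drug main effect. The cause was not tested. This choice keeps only 1 of the 1 to 4 Per2 models of a library, whether the others are fragments or full length. The same choice turned the correlation of Per2 with Arntl from 0.86 to -0.16, that of Per1 with Per2 from 0.54 to -0.0738 and that of Per3 with Nr1d2 from 0.53 to -0.0358. When only the fragments were left out, r of Per2 was 0.22 with Arntl and 0.74 with Per1. With each library left out, Per2 with Arntl ran from 0.83 to 0.92. Weighting by length moved Per1 with Per2 to 0.91, and no scaling moved Arntl with Cry2 to 0.86. No paired analysis was possible because the replicate numbers only name libraries. The number of libraries limits the precision: under vehicle, the 95% interval of the log2 difference was -0.16 to -0.0045 for Cry2 and -1.10 to 1.34 for Nr1d1.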

Other observations

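The D-box and E-box factors of the further clock list are given here as values, chosen after their values were seen. Tef, a D-box activator, ranged from 112.0 to 171 over the 14 libraries and Hlf, its relative, from 28.4 to 35.1. Nfil3, the D-box repressor, ran from 5.02 to 8.67, with its lowest values, 5.11 and 5.02, in wild-type TAK-418 replicates 2 and 3. Bhlhe40, an E-box repressor, ran from 34.4 to 47.7, and Bhlhe41 from 13.1 to 16.1. Npas2, which can stand in for Clock in the forebrain, ran from 6.20 to 7.85, below Clock in every library. Btrc, a ubiquitin ligase subunit that acts on PER proteins, split into 7 libraries at 41.9 to 47.5 and 7 at 24.2 to 28.9, with both kinds in 3 of the 4 groups and only high values in the 3 mutant TAK-418 libraries (42.5 to 44.8). Its drug difference in mutants was 0.44 ± 0.272 (limma adjusted p = 1).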
